A study of Mus musculus with 11 samples.

Results

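V(D)J recombination assembles antigen receptor genes, and this account follows the 10 genes listed for it here: Rag2, Dntt, Dclre1c, Prkdc, Lig4, Xrcc4, Xrcc5, Xrcc6, Nhej1 and Polm. Rag2 and Dntt are lymphoid-specific, and the other 8 serve general end joining. Each gene was read from its probe set with exactly 1 gene symbol and the highest mean over all arrays. Of the 10 genes, 9 were measured in this way, among 22180 genes in all, and each of the 9 had 1 such probe set. Dclre1c, the gene of the hairpin-opening nuclease Artemis, had none and was not analysed here.

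The study used 11 whole-transcript expression arrays of common lymphoid progenitors (CLPs), the bone marrow precursors of B and other lymphoid cells, from C57BL/6 mice. Mice received PBS or 50 µg of CpG1826, an oligonucleotide ligand of the receptor TLR9, every other day, and the cells were sorted on day 10. CLPs were split by the surface protein Ly-6D, which marks CLPs already biased to the B lineage, while Ly-6D- CLPs keep a broader lymphoid potential. The groups were Ly-6D+ CLPs after PBS (2 arrays) or after CpG (3 arrays), and Ly-6D- CLPs after PBS (3 arrays) or after CpG (3 arrays). No group carried a transgene or a deleted gene according to the labels. The labels do not say whether an array stands for 1 mouse or a pool, nor whether both populations came from the same mice, so the p-values measure only the spread between these samples, which may be technical.

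In V(D)J recombination the RAG1 and RAG2 proteins cut DNA beside the receptor gene segments, leaving hairpin-sealed coding ends. Artemis opens the hairpins, terminal transferase, the product of Dntt, adds untemplated nucleotides, and the general end-joining machinery of every cell seals the break. In that machinery the Ku heterodimer (Xrcc5 and Xrcc6) binds the ends, the kinase encoded by Prkdc assembles on Ku, polymerases such as the product of Polm fill gaps, and Lig4 with Xrcc4 and Nhej1 ligates. CLPs are among the first cells in the bone marrow to express the RAG genes and Dntt.

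Promoter sequences of 3 members are shown first. Rag2 and Xrcc6 both passed with CpG in Ly-6D- CLPs below, while Dntt, the other lymphoid-specific gene, did not. They are the stretches upstream of the annotated transcription start, 5′ to 3′ on the gene's strand, from RefSeq on GRCm38.p6, and each ends at the base before the start. Rag2 lies at chr2:101624462-101624711 (plus strand), Dntt at chr19:41029025-41029274 (plus strand) and Xrcc6 at chr15:82016259-82016368 (plus strand). Capitals mark the E-box CANNTG, the Ikaros-type core GGGAA and the GC box GGGCGG, searched on both strands.
Rag2: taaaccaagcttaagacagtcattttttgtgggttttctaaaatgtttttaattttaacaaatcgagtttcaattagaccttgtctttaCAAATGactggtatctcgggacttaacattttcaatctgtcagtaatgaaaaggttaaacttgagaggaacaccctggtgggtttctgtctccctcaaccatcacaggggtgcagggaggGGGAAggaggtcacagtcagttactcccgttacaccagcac
Dntt: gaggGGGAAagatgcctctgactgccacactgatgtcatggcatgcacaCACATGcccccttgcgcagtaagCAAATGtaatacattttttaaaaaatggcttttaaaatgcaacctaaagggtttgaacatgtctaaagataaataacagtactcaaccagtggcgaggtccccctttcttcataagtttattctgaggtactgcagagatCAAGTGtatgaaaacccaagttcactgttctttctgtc
Xrcc6: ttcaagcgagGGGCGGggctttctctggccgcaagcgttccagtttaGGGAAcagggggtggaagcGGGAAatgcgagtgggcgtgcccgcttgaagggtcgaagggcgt
For Rag2 and Dntt 250 bases are printed, and for Xrcc6 the 110 bases nearest the start, since the rest lies within the span of its neighbour Desi1.

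The 250 bases of Rag2 held 1 E-box and 1 GGGAA, and those of Dntt held 3 E-boxes and 1 GGGAA. The shorter Xrcc6 stretch held no E-box, 2 GGGAA and 1 GC box. Among 32851 promoters of the same RefSeq table, 66.2% held an E-box, 56.2% a GGGAA and 32.7% a GC box within 250 bases. Within 110 bases those shares were 37.6%, 30.0% and 25.7%. Promoters were in the table for 9 of the 10 members, with 10 start sites in all, and the entry of Prkdc is missing from it. Over the full 250 bases a GC box was found upstream of Dclre1c, Xrcc4, Xrcc6, Nhej1 and Polm and of 1 of the 2 Lig4 start sites. None was found upstream of Rag2, Dntt, Xrcc5 or the other Lig4 start site. No member's 250 bases held TATAAA, TTCNNNGAA (a STAT-type site) or GTAAACA (a Foxo-type site), which 12.4%, 7.02% and 3.17% of all promoters held. These matches describe letters in a window and say nothing of binding.

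The values are log2 expression after RMA, the usual normalization for these arrays, so a difference of 1 is a 2-fold difference. Genes were compared in limma, a linear model with 1 mean per group, and passed where the p-value, adjusted by Benjamini-Hochberg over all 22180 genes, was below 0.05. Intervals are 95% confidence intervals from that model. The sort was visible in its own marker: Ly6d was 4.35 ± 0.18 (SE) higher in Ly-6D+ than in Ly-6D- CLPs after PBS (limma adjusted p = 1.68e-06), and 4.85 ± 0.16 higher after CpG (adjusted p = 3.46e-07). Of the CLP surface genes, Il7r lay between 9.05 and 10.85 and Flt3 between 10.36 and 10.87 on the 11 arrays. The mean of 8 measured T-cell markers per array lay between 4.64 and 5.05, with Cd3e between 2.84 and 3.85. Lat and Cd5, named after their values were seen, were the highest of the 8, at 7.83 to 8.99 and 5.91 to 7.05. The array medians over all probe sets were 3.85 to 3.96.

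Rag2, the lymphoid-specific partner of the RAG recombinase, was the member with the widest range. It measured 9.80 and 9.89 on the Ly-6D+ PBS arrays, and 9.77, 9.77 and 9.57 on the Ly-6D+ CpG arrays. It measured 9.61, 9.71 and 9.48 on the Ly-6D- PBS arrays, and 8.69, 8.92 and 8.92 on the Ly-6D- CpG arrays. All 3 arrays of CpG-treated Ly-6D- CLPs lay below the other 8, and the lowest of those 8 was a Ly-6D- PBS array. The group means were 9.85 ± 0.07 (SD, n = 2), 9.70 ± 0.11 (SD, n = 3), 9.60 ± 0.11 (SD, n = 3) and 8.85 ± 0.13 (SD, n = 3) in that order. In Ly-6D- CLPs Rag2 fell with CpG by 0.75 (SE 0.11, 95% interval -0.99 to -0.52, limma adjusted p = 0.0221), a 1.68-fold lower level. In Ly-6D+ CLPs its change was -0.14 (95% interval -0.40 to 0.12, adjusted p = 0.932), which did not pass. In bulk samples of sorted cells, fewer cells that express a gene and less RNA per cell cannot be told apart.

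A Rag2 reading can be blurred by its genomic neighbours. In the annotation the gene Iftap overlaps Rag2 on the opposite strand, and a further probe set that names both genes was not used. Rag1 shares its probe sets with Iftap and was not analysed here, so the RAG recombinase is seen through Rag2 alone.

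Dntt encodes terminal transferase, which adds untemplated bases to coding ends. It measured 12.15 and 12.17 on the Ly-6D+ PBS arrays and 12.19, 12.27 and 12.18 on the Ly-6D+ CpG arrays. The Ly-6D- PBS arrays gave 12.28, 12.34 and 12.28, and the Ly-6D- CpG arrays 11.96, 11.90 and 12.16. CpG-treated Ly-6D- CLPs were again below untreated ones on every array, but their highest array lay between the Ly-6D+ PBS arrays. The change in Ly-6D- CLPs was -0.29 (SE 0.09, 95% interval -0.49 to -0.09, limma adjusted p = 0.210, unadjusted p = 0.00849), which did not pass. In Ly-6D+ CLPs the change was 0.05 (95% interval -0.17 to 0.28, adjusted p = 0.984). Of 21 alternatives, the Dntt change passed under 1, a variance model in which the variance follows a trend with expression and is estimated robustly (limma adjusted p = 0.0237).

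**Figure D1:**
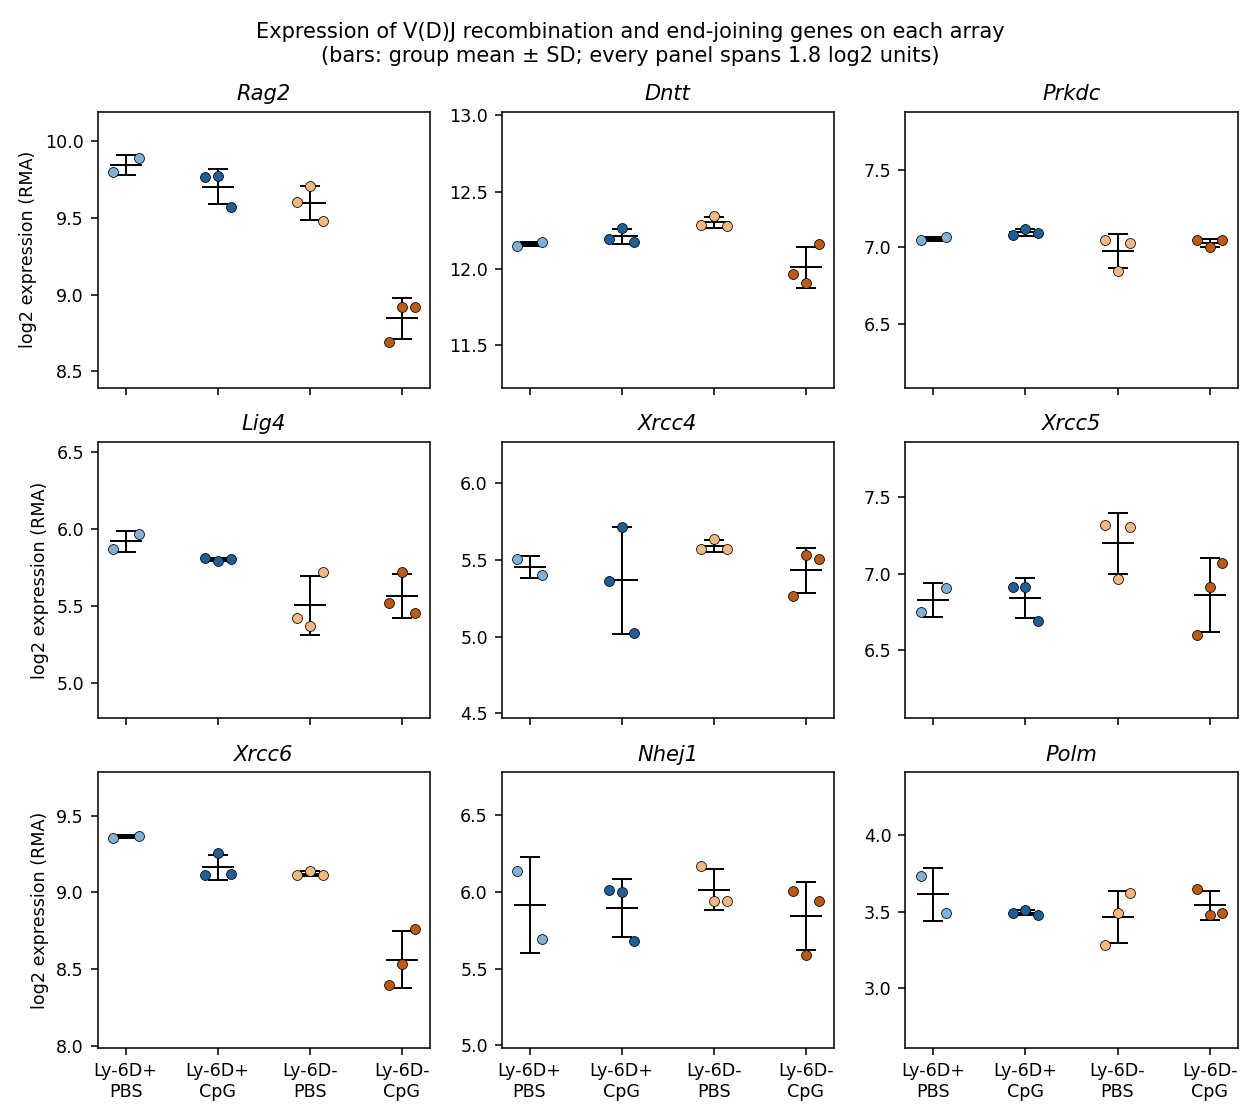
Log2 expression (RMA) of the 9 measured genes on each array, 1 panel a gene, with points for arrays in the 4 population-by-treatment groups and bars for the group mean ± SD. Every panel spans the same number of log2 units. Rag2 and Xrcc6 show all 3 Ly-6D- CpG arrays below the other 8.

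Xrcc6 (Ku70), a subunit of the Ku heterodimer that first binds the broken ends, was the general end-joining gene that passed. It measured 9.36 and 9.37 on the Ly-6D+ PBS arrays, 9.11, 9.26 and 9.12 on the Ly-6D+ CpG arrays, and 9.11, 9.14 and 9.11 on the Ly-6D- PBS arrays. The Ly-6D- CpG arrays gave 8.40, 8.53 and 8.76. As for Rag2, these 3 arrays lay below all others. Xrcc6 fell with CpG in Ly-6D- CLPs by 0.56 (SE 0.10, 95% interval -0.79 to -0.33, limma adjusted p = 0.0470), a 1.47-fold lower level. In Ly-6D+ CLPs its change was -0.20 (95% interval -0.46 to 0.05, adjusted p = 0.854), with both PBS arrays above the 3 CpG arrays.

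Xrcc5 (Ku80), the other Ku subunit, was more scattered. Its Ly-6D- PBS arrays gave 7.32, 6.97 and 7.31 and its Ly-6D- CpG arrays 6.60, 6.91 and 7.07, so the groups overlapped. The change with CpG in Ly-6D- CLPs was -0.34 (95% interval -0.66 to -0.02, limma adjusted p = 0.387). The Ly-6D+ arrays lay between 6.69 and 6.91, with a change of 0.01 (95% interval -0.35 to 0.37, adjusted p = 1).

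Prkdc, the catalytic subunit of DNA-dependent protein kinase that Ku recruits, kept the narrowest range of the 9 genes, from 6.85 to 7.12 over the 11 arrays. Its changes with CpG were 0.06 (95% interval -0.13 to 0.24) in Ly-6D- CLPs and 0.04 (95% interval -0.17 to 0.25) in Ly-6D+ CLPs, with limma adjusted p = 0.864 and 0.985. On 4 of its arrays the deposited Prkdc value was identical, at 7.04. Such repeats are common in these values: 49.9% of the genes had 1 value on 2 or more arrays and 13.9% had it on 4 or more, and small SDs can therefore understate the spread.

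The ligation complex showed no change that passed. Lig4, the ligase, measured 5.42, 5.37 and 5.72 on the Ly-6D- PBS arrays and 5.52, 5.72 and 5.45 on the Ly-6D- CpG arrays, with a change of 0.06 (95% interval -0.19 to 0.31, limma adjusted p = 0.900). Xrcc4, its scaffold, measured 5.57, 5.64 and 5.57 against 5.26, 5.53 and 5.50, so the groups did not overlap, yet the change of -0.16 (95% interval -0.50 to 0.18, adjusted p = 0.764) did not pass. Xrcc4 varied most among the Ly-6D+ CpG arrays, at 5.36, 5.72 and 5.02. Nhej1 (XLF), which stabilizes the complex, ranged from 5.59 to 6.17 over all arrays, with a change of -0.17 in Ly-6D- CLPs (95% interval -0.52 to 0.18, adjusted p = 0.751).

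Polm encodes a gap-filling polymerase related to terminal transferase. It read 3.28 to 3.74 on all 11 arrays, below the array medians over all probe sets (3.85 to 3.96). No detection calls were used here, so that reading may be near background. Its changes with CpG were 0.08 in Ly-6D- CLPs (95% interval -0.17 to 0.32) and -0.12 in Ly-6D+ CLPs (95% interval -0.39 to 0.15), with limma adjusted p = 0.861 and 0.957.

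Counted over the 9 measured genes, 2 passed for CpG in Ly-6D- CLPs, Rag2 and Xrcc6, both lower, where 0.546% of all genes passed (67 higher and 54 lower, or 93 and 43 with each array centred on its median). Of the lymphoid-specific pair 1 of 2 passed, and of the general end-joining genes 1 of 7. The general genes had a median change of -0.16, from -0.56 to 0.08, and 4 of the 7 were lower. The median over all 22180 genes was -0.000572. The arrays of Rag2, Dntt, Xrcc4 and Xrcc6 did not overlap between PBS and CpG, 4 of 9 genes against 15.7% of all genes.

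In Ly-6D+ CLPs none of the 9 genes passed in limma, where 0.0271% of all genes did, and none had an unadjusted p under 0.05. Their changes lay between -0.20 and 0.05. The widest interval bounds were -0.47 and 0.37, so larger changes in either direction lie outside every member's 95% interval. The groups did not overlap for Rag2, Dntt, Prkdc, Lig4 and Xrcc6, 5 of 9 genes against 20.4% of all genes, a high background because the PBS group has 2 arrays.

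**Figure D2:**
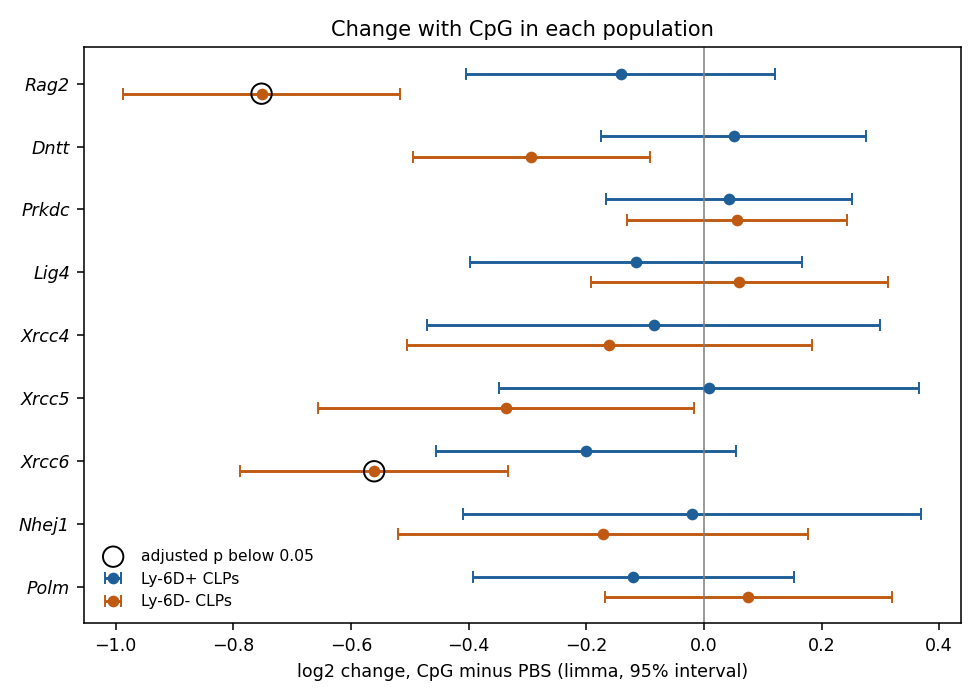
Log2 change of each gene, CpG minus PBS, in Ly-6D+ (blue) and Ly-6D- (orange) CLPs, with 95% intervals from limma on the x axis and circles around changes with an adjusted p below 0.05. The circled changes are Rag2 (-0.75) and Xrcc6 (-0.56) in Ly-6D- CLPs.

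Whether the CpG effect itself differed between the populations was tested as the difference of both effects. No gene of the 22180 passed in limma (0.0% of all genes), although 1413 genes had an unadjusted p under 0.05. Among the members, Rag2 had a difference of 0.61 (95% interval 0.26 to 0.96, unadjusted p = 0.00300, adjusted p = 0.622). Dntt had 0.34 (95% interval 0.04 to 0.64, adjusted p = 0.757) and Xrcc6 0.36 (95% interval 0.02 to 0.70, adjusted p = 0.773). The effect in Ly-6D- CLPs is therefore not shown to differ from that in Ly-6D+ CLPs after adjustment over all genes. Averaged over both populations, Rag2 fell by 0.45 (95% interval -0.62 to -0.27, limma adjusted p = 0.0469) and was the single member of 9 to pass, where 0.482% of all genes passed. Xrcc6 averaged -0.38 (adjusted p = 0.0742).

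Both calls in Ly-6D- CLPs depended on single arrays, and calls over all genes varied too. In that comparison 121 genes passed, but 4 with only both groups compared in the fit, and 5 to 309 with a Ly-6D- array left out. Leaving out Ly-6D- CpG replicate 1 or 2, or any 1 of the 3 Ly-6D- PBS arrays, ended the Rag2 call, with limma adjusted p up to 0.117 and changes from -0.81 to -0.68. The Xrcc6 call held without Ly-6D- CpG replicate 3 (change -0.66, adjusted p = 0.0139) and ended without any other single array, in either population, with adjusted p up to 0.179 and changes from -0.57 to -0.48. The Rag2 call also ended with every probe set tested by itself (adjusted p = 0.0725) and with only both groups compared in the fit (adjusted p = 0.107). The Xrcc6 call ended in those fits too (adjusted p = 0.119 and 0.186), with each array centred on its median (adjusted p = 0.0625) and without all arrays numbered 3 (adjusted p = 0.0597). The average call of Rag2 likewise held without Ly-6D- CpG replicate 3 alone (adjusted p up to 0.149).

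**Figure D3:**
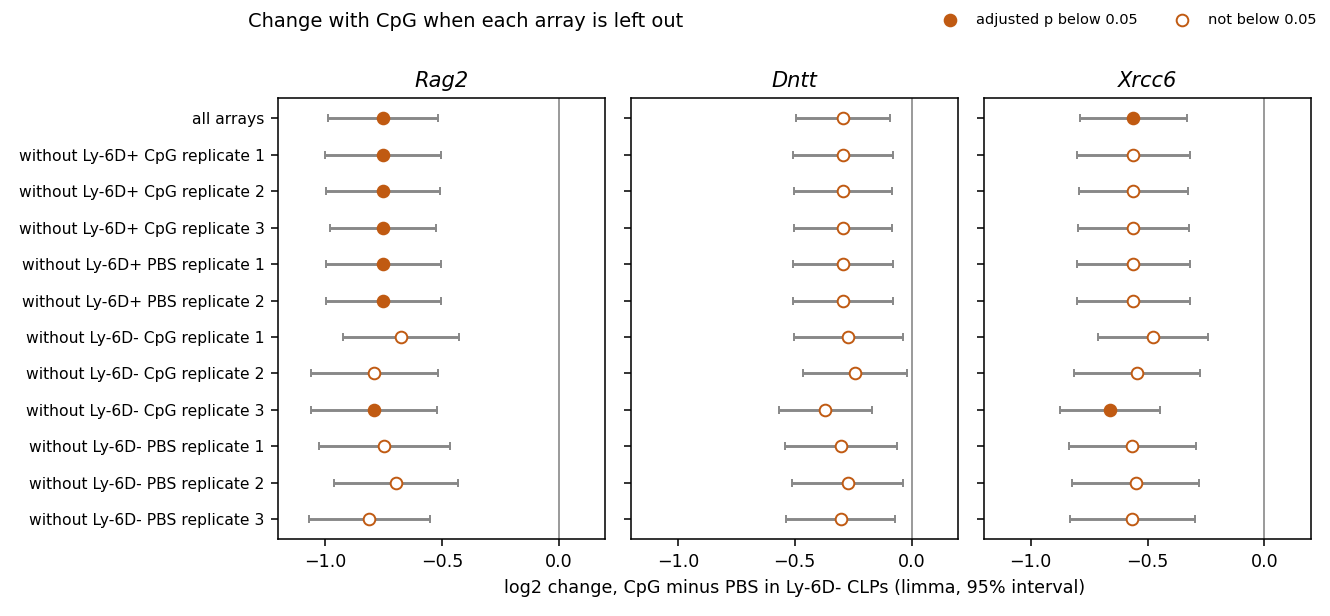
Log2 change with CpG in Ly-6D- CLPs for Rag2, Dntt and Xrcc6, with all arrays and without each of the 11 in turn, as points with 95% intervals from limma. Filled points have an adjusted p below 0.05. Every point lies below 0. Ly-6D+ arrays enter this change only through the shared estimate of the spread. Among the rows that leave out a Ly-6D- array, Rag2 and Xrcc6 keep a filled point only without Ly-6D- CpG replicate 3.

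Without CpG treatment no member's difference between the populations passed. After PBS, none of the 9 members passed in limma between Ly-6D+ and Ly-6D- CLPs, where 1.98% of all genes passed. Rag2 was 0.25 higher in Ly-6D+ CLPs (95% interval -0.01 to 0.51, adjusted p = 0.454) and Dntt had a difference of -0.14 (95% interval -0.37 to 0.08, adjusted p = 0.686). Among the general genes the differences ran from -0.37 for Xrcc5 (95% interval -0.72 to -0.01, adjusted p = 0.399) to 0.42 for Lig4 (95% interval 0.13 to 0.70, adjusted p = 0.169). Lig4 measured 5.87 and 5.97 on the Ly-6D+ PBS arrays, above all 3 Ly-6D- PBS arrays. The arrays of 6 of the 9 genes did not overlap between the populations, against 26.9% of all genes.

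After CpG, Rag2 and Xrcc6 passed between the populations, 2 of 9 members where 2.14% of all genes passed (266 higher and 208 lower, or 216 and 253 with each array centred on its median). Rag2 was 0.86 higher in Ly-6D+ CLPs (SE 0.11, 95% interval 0.62 to 1.09, limma adjusted p = 0.00157), a 1.81-fold difference. Xrcc6 was 0.60 higher (SE 0.10, 95% interval 0.37 to 0.83, adjusted p = 0.0121), a 1.52-fold difference. Dntt was 0.20 higher (95% interval 0.00 to 0.40, adjusted p = 0.392) and did not pass. The remaining general genes lay between -0.06 for Xrcc4 and 0.24 for Lig4. In 5 of the 9 genes the arrays did not overlap, against 16.9% of all genes. This comparison shares its Ly-6D- CpG arrays with the CpG comparison in Ly-6D- CLPs, so both rest on the same low readings.

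The Rag2 difference after CpG passed without each array in turn (0.78 to 0.92, limma adjusted p up to 0.0105). The Xrcc6 difference no longer passed when Ly-6D+ CpG replicate 2, or either of the first 2 Ly-6D- CpG replicates, was left out (0.52 to 0.58, adjusted p up to 0.0597).

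**Figure D4:**
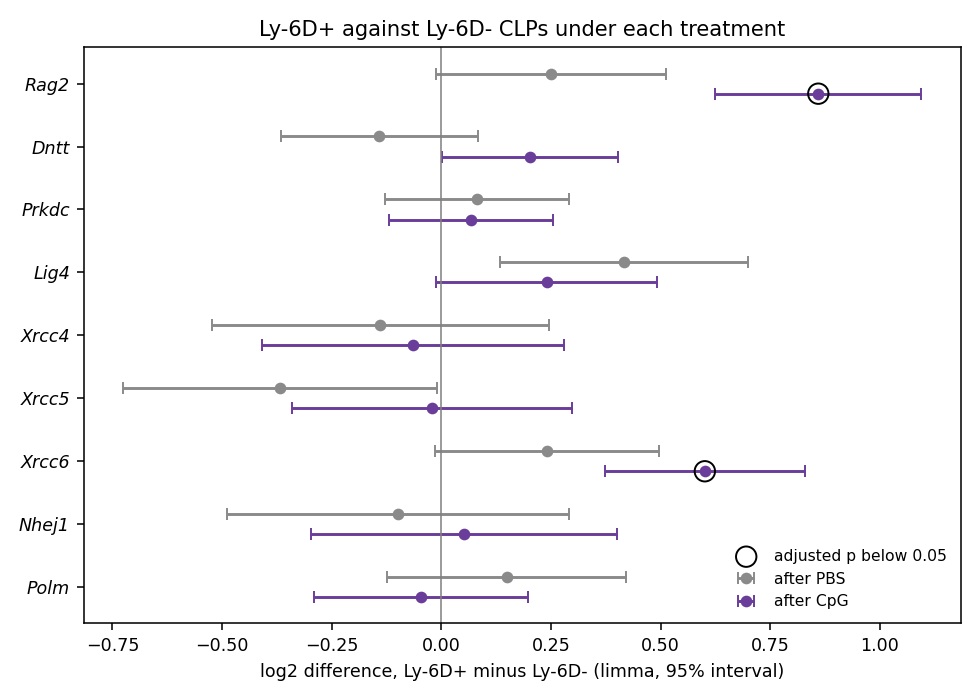
Log2 difference of each gene between populations, as Ly-6D+ minus Ly-6D-, in PBS-treated mice (grey) and CpG-treated mice (purple), with 95% intervals from limma on the x axis and circles around differences with an adjusted p below 0.05. The circled differences are Rag2 (0.86) and Xrcc6 (0.60) after CpG.

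Other genes of recombination and break repair had no change that passed with CpG in Ly-6D- CLPs. Hmgb1 and Hmgb2, chromatin proteins that bend DNA for the RAG recombinase, changed in Ly-6D- CLPs by 0.08 and 0.13 with CpG (limma adjusted p = 0.758 and 0.626). Of 9 measured accessory end-joining genes none passed in either direction, and their median change was 0.09. Dnttip2, whose product binds terminal transferase, had the smallest p among them, with a change of 0.29 (adjusted p = 0.200). Of 13 measured genes of break sensing and signalling none passed (median 0.08), with the kinase gene Chek2 at 0.38 (adjusted p = 0.212). None of 7 alternative end-joining genes passed (median 0.13), with the flap nuclease gene Fen1 first by p, and none of 14 homologous recombination genes (median 0.12), with Rad54l at 0.37 (adjusted p = 0.168). The medians of these repair lists were above 0 and that of the 9 members was -0.17.

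Between the populations after PBS, 1 of the 45 measured genes of these 5 lists passed, a share near the 1.98% of all genes. It was Parp1, which senses breaks and feeds alternative end joining and was 0.51 higher in Ly-6D+ CLPs (95% interval 0.30 to 0.73, limma adjusted p = 0.0241). After CpG Parp1 was 0.37 higher (adjusted p = 0.0628). Poll, a gap-filling polymerase of the same family as Polm and terminal transferase, was at -0.56 in Ly-6D+ against Ly-6D- CLPs after CpG (adjusted p = 0.0545), and did not pass.

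Of 15 measured transcription factors known to act on the RAG genes or Dntt, 4 passed as higher in Ly-6D+ CLPs after PBS and none passed as lower, where 1.98% of all genes passed. By sign alone 11 were higher and 4 lower. Ebf1 was 3.64 higher and Pax5 2.57 higher (limma adjusted p = 9.24e-06 and 5.08e-05), Lef1 2.36 higher and Foxo1 1.70 higher (adjusted p = 0.00234 and 0.000225). Ebf1, Pax5 and Foxo1 are regulators of the B lineage, and Lef1 is a Wnt-pathway factor of lymphoid precursors. After CpG Ebf1, Pax5, Lef1 and Foxo1 were higher again, and Spi1, a myeloid and B-cell factor, was lower in Ly-6D+ CLPs, with a difference of -0.79 (adjusted p = 0.00944). Rag2 and Dntt did not pass after PBS on the same arrays.

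With CpG none of the 15 factors passed in either population. In Ly-6D- CLPs their median change was -0.16, with Ebf1 at -0.72 (limma adjusted p = 0.112), Foxp1 at -0.33 (adjusted p = 0.155) and Spi1 at 0.47 (adjusted p = 0.156). In Ly-6D+ CLPs Foxo1 changed by -0.51 (adjusted p = 0.525), Lef1 by -0.88 (adjusted p = 0.592) and Ebf1 by -0.51 (adjusted p = 0.669), while Rag2 changed by -0.14.

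**Figure D5:**
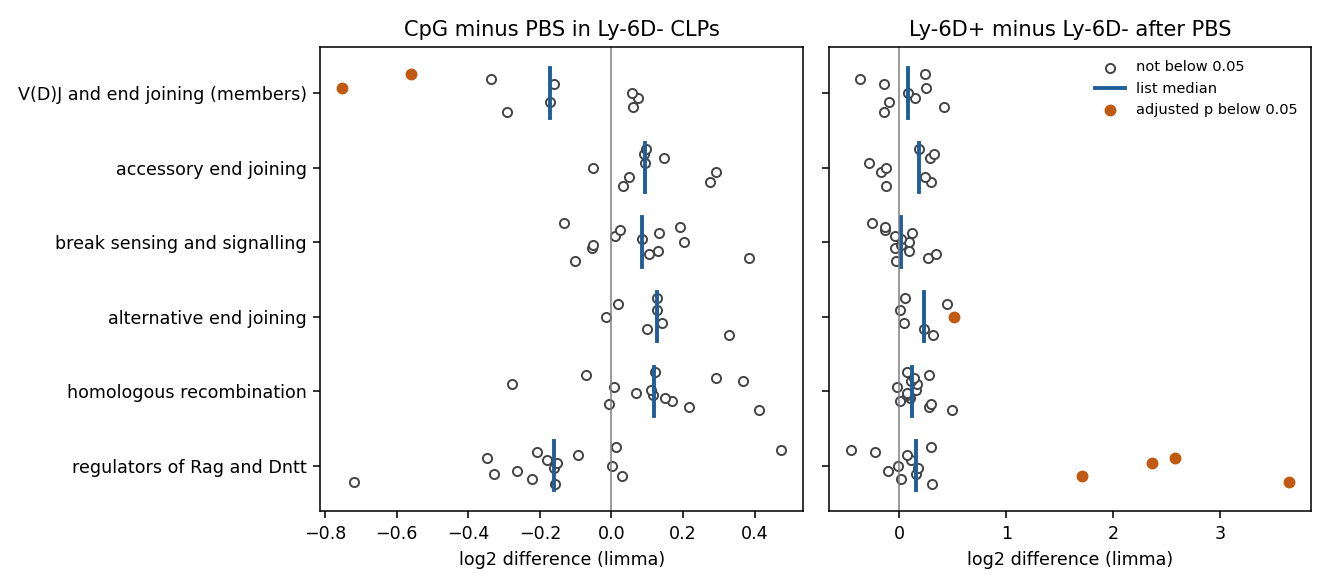
Log2 differences of the members and of 5 lists of related genes, the change with CpG in Ly-6D- CLPs on the left and the PBS-treated Ly-6D+ population minus the Ly-6D- one on the right, with 1 point a gene, a bar at each list's median and filled points for a limma adjusted p below 0.05. On the left the filled points are Rag2 and Xrcc6, and on the right they are Parp1 and 4 transcription factors.

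Cell-type markers were also read in the Ly-6D- arrays in which Rag2 and Xrcc6 fell, and among them only Il7r and Ly6c2 passed. All 7 lymphoid progenitor markers were lower, with a median of -0.50. Ly6d, the gene of the sort marker, is 1 of the 7, with group means of 8.23 after PBS and 7.72 after CpG. Il7r, the interleukin-7 receptor that defines CLPs, fell by 0.81 (limma adjusted p = 0.0300) and alone passed, where 0.546% of all genes passed. Ccr9 was at -0.70 (adjusted p = 0.133) and Notch1 at -0.57 (adjusted p = 0.171). The mean of these 7 markers per array ran from 8.80 to 8.88 after PBS and from 8.15 to 8.60 after CpG. The Il7r call ended when single arrays were left out, with adjusted p up to 0.132.

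Of the 9 measured pro-B and pre-B markers 7 were lower and 2 higher, with a median of -0.34, and none passed. Their mean per array was 6.43 to 6.53 after PBS and 5.98 to 6.25 after CpG, with Vpreb3 at -0.76 (limma adjusted p = 0.120). Of 10 myeloid markers 7 were higher and 3 lower, none passed, and their median was 0.19. The lowest was Elane, at -0.29. Their mean per array was 9.29 to 9.56 after PBS and 9.55 to 9.90 after CpG, with Csf1r, the receptor of macrophage colony-stimulating factor, at 1.08 (adjusted p = 0.0524). Of 6 plasmacytoid dendritic cell markers 3 were higher and 3 lower, with a median of 0.03. All 6 had an unadjusted limma p under 0.05, as did 2664 of all 22180 genes. Ly6c2 rose by 1.09 (adjusted p = 0.0300) and alone passed, where 0.546% of all genes passed and calls varied with the arrays kept. Irf8 was at 0.39 (adjusted p = 0.0989) and Ccr9, also a lymphoid progenitor marker here, at -0.70. The list's mean per array was 9.01 to 9.17 and then 9.18 to 9.22. T-cell, NK-cell and erythroid lists had medians of -0.05, 0.05 and 0.03 and no gene that passed. The T-cell list, with 3 genes higher and 5 lower, ran from -0.78 for Lat (limma adjusted p = 0.0538) to 0.82 for Cd3d. The part of these marker changes in the Rag2 and Xrcc6 results was not tested.

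In Ly-6D+ CLPs the lymphoid progenitor markers had a median change of -0.00373 with CpG, which is the value of Ly6d itself. Il7r was at -0.03 (limma adjusted p = 0.994). Of the 9 pro-B and pre-B markers there 8 were lower and 1 higher, with a median of -0.40, and none passed. Pou2af1 was at -1.89 (limma adjusted p = 0.120) and Vpreb3 at -1.35 (adjusted p = 0.117). On the same arrays Rag2 was at -0.14 and Dntt at 0.05. Averaged over both populations, Vpreb3 and Pou2af1 passed as lower, 2 of 9 markers where 0.482% of all genes passed. In that average 107 genes passed, but 28 without Ly-6D- CpG replicate 1.

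The genes whose log2 values most resembled those of Rag2 over the 11 arrays, among all genes, were Tmem108 (Pearson r = 0.97), Xrcc6 (r = 0.97), Arpp21 (r = 0.96), Gimap6 (r = 0.96) and Smap2 (r = 0.95). These correlations were taken over arrays of all 4 groups together and are a description. The genes were picked on the same arrays, so their changes with CpG partly follow from the choice and are no separate result. In Ly-6D- CLPs Tmem108 fell with CpG by 0.87, Arpp21 by 0.86 and Gimap6 by 0.74 (limma adjusted p = 0.00660, 0.0108 and 0.0412), while Smap2 was at -0.39 (adjusted p = 0.0663). Calls in this comparison varied with the arrays kept, as given above. In Ly-6D+ CLPs the 4 changed by -0.21, -0.05, -0.15 and -0.15, and none passed.

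The genes most like Dntt were Pik3r1 (r = 0.95), Flt3 (r = 0.95), Tlr7 (r = 0.94), Mn1 (r = 0.93) and Eef2k (r = 0.93), picked in the same way and with the same limit. Of these, Tlr7, a nucleic-acid receptor, and Mn1 fell with CpG in Ly-6D- CLPs by 0.75 and 0.70 (limma adjusted p = 0.0300 and 0.0485). Both calls belong to the same comparison, where calls varied with the arrays kept. Pik3r1, Flt3, the receptor tyrosine kinase of early lymphoid progenitors, and Eef2k were at -0.33, -0.31 and -0.32 (adjusted p = 0.194, 0.248 and 0.137), beside -0.29 for Dntt. In Ly-6D+ CLPs the 5 lay between -0.09 and 0.05. Xrcc6 was the single other member among the 5 nearest to Rag2, and no member was among the 5 nearest to Dntt.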

How the data were processed

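RNA from sorted CLPs (5 ng per array, per the labels) was amplified by the NuGen SPIA method and hybridised to whole-transcript mouse arrays. The deposited values are log2 expression per probe set, which the authors computed by RMA in Partek software according to the submitters' processing notes. Their versions were not given in the sources used here. The method quantile-normalises the arrays, which removes shifts shared by all genes, and its median polish can give identical values on several arrays. The number of arrays limits the precision.

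Of 41345 probe sets, 23521 had exactly 1 gene symbol in the platform annotation, 1814 had several and 16010 had none. For each of 22180 genes the brightest such probe set by mean value was kept. A linear model with 4 group means was fitted with limma 3.58.1 in R 4.3.3 (7 residual and 3.48 prior degrees of freedom), and 6 contrasts were adjusted by Benjamini-Hochberg over all genes. The fit was tested on simulated data. Python 3.11.15, pandas 2.3.3 and matplotlib 3.10.9 made tables and figures.

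Alternatives were averaged probe sets per gene, all probe sets, omission of the dimmest 33.3% of genes, a variance trend with robust estimation, weighted arrays, a fit of both compared groups alone, further quantile normalization, median centring, the replicate number as a block, and each array left out. With 1 Ly-6D+ PBS array left, that array is assumed to vary like the other groups. Leaving out all arrays numbered 3 was added after their lower weights were seen. Named were all members, list genes that passed or otherwise up to 3 with the smallest p, and the 5 genes most like Rag2 and most like Dntt, with predicted and numbered symbols passed over. The members and lists were chosen with earlier results of these data known.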

Additional observations from a re-analysis of the deposited data

How the results depend on the processing

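Over 21 alternatives, no member passed under any of them for CpG in Ly-6D+ CLPs or between the populations after PBS, nor for the difference of effects under the 20 that apply to it. For CpG in Ly-6D- CLPs, 2 members passed, but 3 (with Dntt) with a variance trend, 0 with every probe set tested or with only the groups compared, 1 (Rag2) with median centring, with the replicate block or without all arrays numbered 3, and 0 to 2 without single arrays. For the average, 1 member passed, but 2 without the dimmest genes, with a variance trend or with array weights, 0 with every probe set, median centring, the replicate block or without all arrays numbered 3, and 0 to 2 without single arrays. After CpG, 2 passed between the populations, but 1 (Rag2) with only the groups compared and 1 to 2 without single arrays. Under the replicate block, Rag2 in Ly-6D- CLPs kept -0.75 (limma adjusted p = 0.0294) and Xrcc6 -0.56 (adjusted p = 0.0679). Whether the shared number pairs the arrays is not settled by these values. Deviations from group means of same-numbered arrays correlated at -0.03 to 0.18 (mean 0.05), with 2 of 15 pairs over 0.1. Those of other arrays correlated at -0.13 to 0.09 (mean -0.02), with 0 of 30 pairs over 0.1. Rag2 after CpG passed under all 21 alternatives (adjusted p up to 0.0179), and in Ly-6D- CLPs under 14 (adjusted p from 0.00155 to 0.117), while Xrcc6 passed under 17 (adjusted p up to 0.0856) and 6 (adjusted p up to 0.186). Signs turned for some values that had not passed: Xrcc4 after CpG ran from -0.24 to 0.11 without single arrays and was 0.14 without all arrays numbered 3, where Xrcc5 was 0.16. Nhej1 ran from -0.24 to 0.20 for CpG in Ly-6D+ CLPs and from -0.32 to 0.12 after PBS, and Hmgb1 with CpG in Ly-6D- CLPs was -0.00296 after further quantile normalization. The cause of these turns was not tested. Groups of 2 or 3 arrays and Polm readings below the array medians set the limits of precision.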
